A study of Mus musculus with 20 samples.

Results

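Genes of the ATP-gated P2X receptors and of the acid-sensing ion channels (ASICs) were followed in mouse dorsal root ganglia (DRG), where the cell bodies of sensory neurons lie. The 9 genes, chosen by name, were P2rx2, P2rx3, P2rx4, P2rx5, P2rx6 and P2rx7 for the P2X receptors and Asic1, Asic2 and Asic3 for the ASICs. They were 9 of 78258 genes in the count table and of 28564 genes that passed the filter on low counts, and all 9 passed. Between 306 and 35418 reads were counted for each of them in a library.

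The study compared mice with a conditional knockout (cKO) of Ahr, which encodes the aryl hydrocarbon receptor, with control mice after a nerve lesion. Per the labels, cKO mice were Ahr fl/fl with a Thy1CRE-ERT2/EYFP transgene, a tamoxifen-inducible Cre recombinase driven by the Thy1 promoter and marked by a yellow fluorescent protein, and control mice were Ahr f/f or f/+. All 10 mice were male, carried at least 1 floxed Ahr allele and received tamoxifen at 100 mg/kg by injection once a day for 5 days at 17 weeks of age. At 4 weeks after tamoxifen the sciatic nerve was cut, and 1 day later ganglia at lumbar levels 4 to 6 were collected on both sides, between 2 and 4 h after lights on. Each mouse gave 1 ipsilateral and 1 contralateral library, so there were 4 groups of 5 libraries: control contralateral, control ipsilateral, cKO contralateral and cKO ipsilateral. The contralateral ganglia are those of injured mice and not of uninjured animals, a treatment tag in the labels names a spinal cord injury where the protocol describes sciatic nerve transection, and the titles call the controls wildtype.

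P2X receptors are cation channels of 3 subunits that open when extracellular ATP binds to them, and in sensory neurons they carry part of the response to ATP set free by damaged or strained tissue. P2rx3 and P2rx2 encode the subunits of the homomeric and heteromeric receptors known from small-diameter nociceptors, while P2rx4 and P2rx7 are best known from macrophages, microglia and glia. ASICs are proton-gated sodium channels of the degenerin and epithelial sodium channel family, also of 3 subunits, and respond to the acid that builds up in inflamed or ischaemic tissue.

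In the GRCm38 annotation of GENCODE release M21, P2rx7 (chr5:122643911-122691432) and P2rx4 (chr5:122707544-122729738) lie next to each other on the plus strand, and P2rx2 (chr5:110339812-110343212, minus strand) and Asic3 (chr5:24413392-24417835, plus strand) are on the same chromosome. P2rx5 (chr11:73160421-73172685) and P2rx6 (chr16:17561885-17577800) are on the plus strand, and P2rx3 (chr2:84998583-85037462) is on the minus strand. Asic1 (chr15:99670368-99701130) is on the plus strand, and Asic2 (chr11:80880169-81968457), on the minus strand, is the longest of the 9 with a span of 1088289 bases. Exons of P2rx3 overlap Ssrp1 and exons of P2rx6 overlap Slc7a4, each on the opposite strand, and the strand setting of the counting is not given in the sources used here, so reads of these pairs may not be told apart. P2rx7 shares exonic bases with the microRNA gene Mir8115 on its own strand. Counts are per gene and do not separate splice forms such as the alternative first exons of Asic1 and Asic2.

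Of the 9 genes, 6 have a promoter in the RefSeq table for GRCm38.p6, and P2rx2, P2rx3 and P2rx5 have none there. The windows of Asic1 and Asic2 are printed because these genes fell in the injured ganglia of both genotypes. Each holds the 250 bases before a transcript start, 5′ to 3′ on the gene's strand, and capitals mark a match to GCGTG, the core letters of the xenobiotic response element to which the aryl hydrocarbon receptor is known to bind, on either strand.
Asic1, chr15:99691974-99692223, plus strand: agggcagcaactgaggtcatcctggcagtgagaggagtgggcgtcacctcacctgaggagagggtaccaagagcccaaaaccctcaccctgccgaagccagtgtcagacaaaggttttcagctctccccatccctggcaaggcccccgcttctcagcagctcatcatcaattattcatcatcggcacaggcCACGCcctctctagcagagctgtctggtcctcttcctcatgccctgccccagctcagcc
Asic2, start 1, chr11:81152904-81153153, minus strand: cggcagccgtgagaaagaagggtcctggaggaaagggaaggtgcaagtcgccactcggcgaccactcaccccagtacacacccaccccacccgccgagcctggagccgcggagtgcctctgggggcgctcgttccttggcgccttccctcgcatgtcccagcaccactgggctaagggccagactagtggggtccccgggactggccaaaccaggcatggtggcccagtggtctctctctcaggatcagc
Asic2, start 2, chr11:81968397-81968646, minus strand: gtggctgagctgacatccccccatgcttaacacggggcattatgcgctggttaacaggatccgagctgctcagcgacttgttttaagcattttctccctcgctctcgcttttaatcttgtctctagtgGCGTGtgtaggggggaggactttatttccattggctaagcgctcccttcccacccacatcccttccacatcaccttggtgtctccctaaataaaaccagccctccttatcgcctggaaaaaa
The Asic1 window, whose start lies inside the span that GENCODE gives to the gene, held 1 match on the opposite strand, 59 bases before the start. The window of the outer Asic2 start held 1 match, 122 bases before it, and that of the inner start held none. GCGTG occurred in 28.2% of 32851 RefSeq promoter windows of the same length. The AP-1 letters TGANTCA (6.75% of windows) were found once among the members, in a P2rx7 window 249 bases before its start, and the RUNX letters TGTGGT (14%) once, in the Asic3 window 228 bases before its start. The CRE letters TGACGTCA (1.55%) were found in none of the 8 windows of the members. All motifs were searched on both strands, and none of these matches was tested for binding.

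The libraries held 76.2 to 118.5 M counts (M, mega), and mitochondrial genes took 0.916% to 1.20% of them in 17 libraries. The contralateral libraries of cKO mice H64, H95 and H100 stood apart, at 1.31%, 1.30% and 1.33%. Calls of members in cKO mice and most genotype values that rest on them are also given without them. This choice was made after the data were seen and leaves 2 contralateral cKO libraries. Ahr had 24.2 ± 2.10 CPM (TMM-normalised counts scaled to library size, SD, n = 5) in control and 20.4 ± 0.536 CPM in cKO contralateral ganglia, a log2 difference of -0.25 that edgeR did not call (adjusted p 0.103) and DESeq2 did (adjusted p 0.022), with ranges that did not overlap. On the ipsilateral side the group means were 34.4 CPM for controls and 31.9 CPM for cKO animals, with overlapping ranges (log2 -0.11, adjusted p 1.00), and it rose with transection by 0.50 on the log2 scale in control and 0.65 in cKO mice (adjusted p 4.7e-06 and 1.5e-07). The labels do not name the deleted exons, so a gene-level count is a weak check of the knockout, and the ganglia were used whole, so cells without Thy1-driven Cre add to it. Thy1, whose promoter drives the transgene, was higher in cKO mice by 0.77 on the log2 scale in contralateral (adjusted p 1.39e-08) and 0.63 in ipsilateral ganglia (adjusted p 4.7e-07). Atf3, a transcription factor of injured neurons, had 9.24 to 11.4 CPM as group means on the contralateral and 417 to 426.5 CPM on the ipsilateral side. Markers of sensory neurons summed to 10360 to 12404 CPM per library over the 4 groups, with none of the 12 at 0. Muscle markers, which ganglia should lack, summed to 1739 CPM in the contralateral library of cKO mouse H100 and to 2.72 to 658 CPM in the other 19. Without H100, 0 of the 9 genes and 0.0208% of all genes were called between genotypes on the contralateral side. With it, 0 of the 9 were called as well. In cKO mice the transection call of P2rx4 was lost without H100 (edgeR adjusted p 0.0559).

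Per kilobase of merged exon, P2rx3 was the most abundant of the 9 genes, with 98.5 ± 7.98 CPM per kb (SD over all 20 libraries). Asic3 followed with 36.6 ± 2.74, Asic2 with 27.8 ± 3.26 and Asic1 with 15.1 ± 2.52 CPM per kb. P2rx6 had 8.27 ± 0.567, P2rx5 7.05 ± 1.87, P2rx4 5.09 ± 0.233, P2rx7 2.41 ± 0.273 and P2rx2 1.72 ± 0.240 CPM per kb. P2rx3 was above Asic3 in every library, with ranges that did not overlap, and the same held for Asic2 above Asic1, Asic1 above P2rx6 and P2rx4 above P2rx7. Asic3 was above Asic2 in 19 of 20 libraries and P2rx7 above P2rx2 in all 20, but the ranges over all libraries overlapped. P2rx6 and P2rx5 did not keep an order: P2rx6 was the higher in 10 of 20 libraries.

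**Figure D1:**
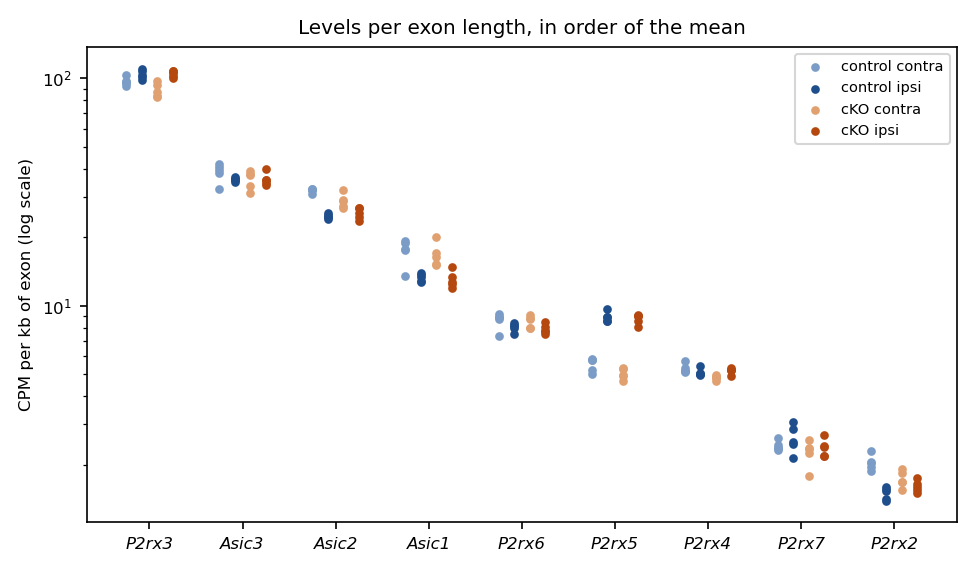
TMM-normalised CPM per kb of merged exon (log scale) for the 9 genes in order of the mean over 20 libraries; each point is a library and colours are the 4 groups of 5. P2rx3 lies above all others at 82.7 to 110 CPM per kb, and the 2 ipsilateral groups of P2rx5 lie above its contralateral groups, where they reach the level of P2rx6.

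Of the summed P2X level per length, P2rx3 made up 80.2% ± 1.28 (SD, n = 5) in control contralateral, 79.9% ± 0.874 in control ipsilateral, 79.8% ± 0.850 in cKO contralateral and 80.2% ± 0.795 in cKO ipsilateral ganglia. Its share thus differed between groups by less than the spread of the control contralateral libraries, and so did that of P2rx7 between the sides of control mice (2.01% ± 0.117 and 2.01% ± 0.307). P2rx5 took 4.58% ± 0.413 of the P2X sum in control contralateral and 6.85% ± 0.430 in control ipsilateral ganglia, and P2rx2 took 1.70% ± 0.174 and 1.15% ± 0.0404. Among the 3 ASIC genes, Asic3 took 43.7% ± 1.61 of the sum per length in control contralateral and 48.5% ± 0.577 in control ipsilateral ganglia, and 44.0% ± 1.81 and 48.3% ± 0.764 in the cKO groups. In both genotypes the ranges of the Asic3 share on the 2 sides did not overlap. These shares are descriptions of levels of RNA and carry no test.

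The first question was how these genes responded to transection on the injured side. In control mice 4 of the 9 genes changed at an adjusted p under 0.05: P2rx5 rose, and P2rx2, Asic1 and Asic2 fell. Over all genes tested 29.9% were called in this comparison, 13.8% higher and 16.0% lower. In cKO mice 5 of 9 changed, with P2rx5, P2rx3 and P2rx4 higher and Asic1 and Asic2 lower, where 31.3% of all genes were called, 16.2% higher and 15.1% lower. The median log2 fold change of the 9 genes was -0.10 in control and 0.0045 in cKO mice, beside -0.0047 and -0.030 over all genes. The ranges of the 5 ipsilateral and 5 contralateral libraries did not overlap for 3 members in control and 4 in cKO mice, a pattern that 23.6% and 20.2% of all genes showed. In these whole ganglia, fewer cells of a type and less RNA per cell cannot be told apart.

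**Figure D2:**
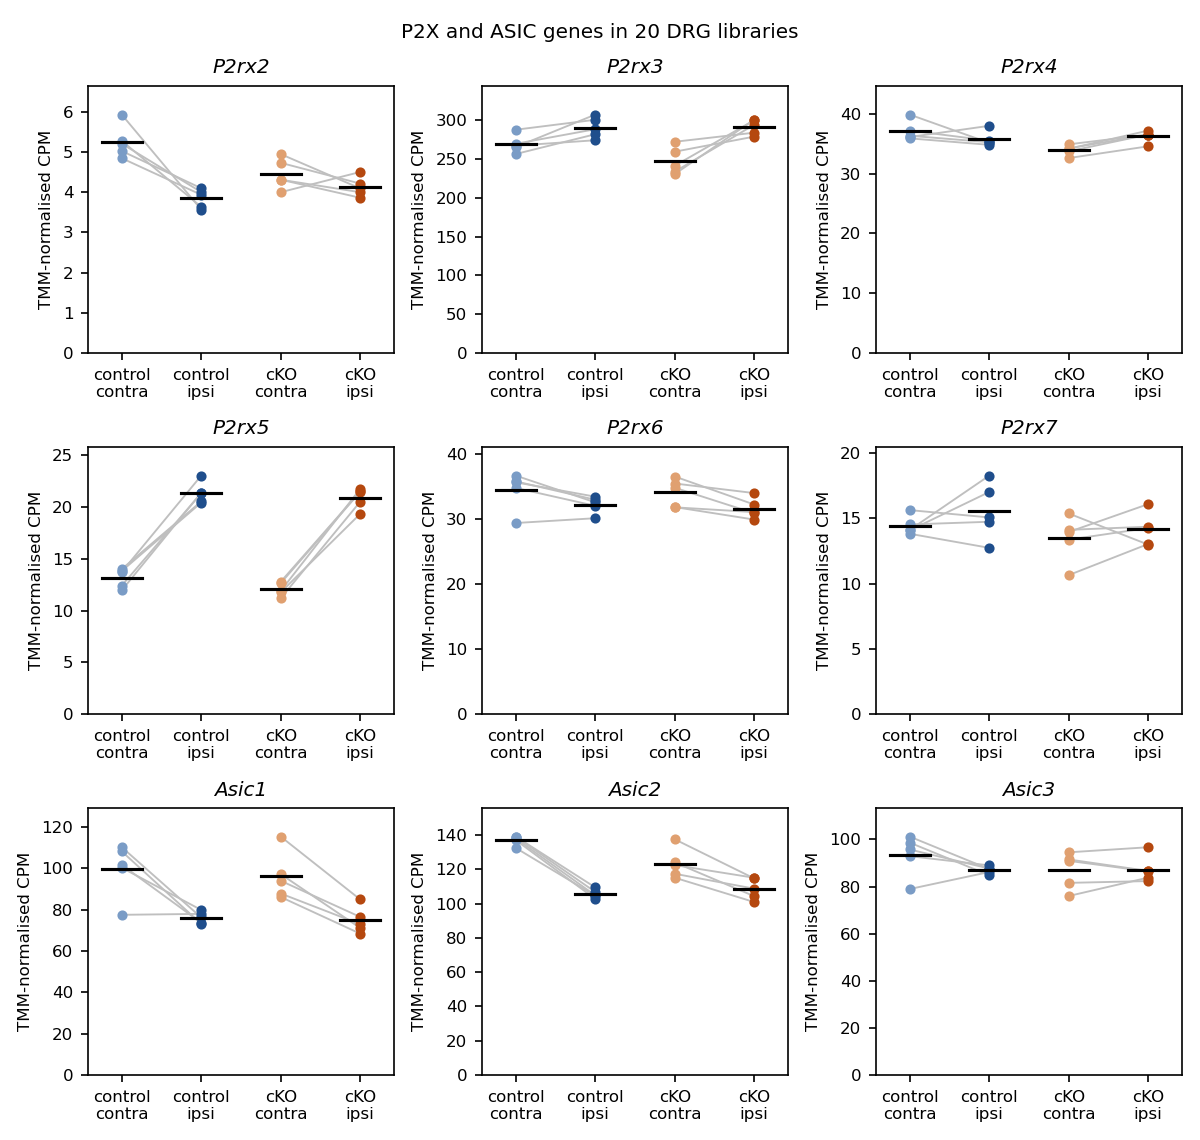
TMM-normalised CPM of the 9 genes (vertical axis from 0) in the 4 groups; points are libraries, grey lines join the sides of a mouse, and black bars are group means (n = 5). P2rx5 is higher on the ipsilateral side in all 10 mice and Asic2 lower in all 10, and the contralateral cKO libraries of P2rx4 lie below the contralateral control libraries.

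P2rx5 encodes a subunit that forms receptors with small currents in rodents and is known from large sensory neurons. In control mice (in the order H62, H63, H65, H96 and H97 throughout) its contralateral libraries held 11.96, 13.7, 14.01, 13.8 and 12.4 CPM and its ipsilateral libraries 21.4, 23.1, 20.5, 20.4 and 21.4 CPM. In cKO mice (in the order H61, H64, H95, H99 and H100 throughout) the contralateral values were 12.8, 11.9, 11.2, 12.7 and 11.8 CPM and the ipsilateral values 21.5, 21.8, 20.5, 21.5 and 19.4 CPM. Every ipsilateral library was above every contralateral library of either genotype. The rise was 1.62-fold in control mice (log2 0.70, SE 0.0522, adjusted p 1.825e-09) and 1.74-fold in cKO mice (log2 0.80, SE 0.0524, adjusted p 1.861e-10), and it was the largest fold change of the 9 genes in each genotype. Within control mice the log2 ratio ran from 0.55 to 0.84, and within cKO mice from 0.72 to 0.87. Without the contralateral libraries of H64, H95 and H100 the log2 value in cKO mice was 0.73 (edgeR adjusted p 2.7e-07).

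P2rx2 encodes the subunit that, joined with that of P2rx3, slows the desensitisation of the receptor. It had 4.84, 5.20, 5.02, 5.93 and 5.27 CPM in the control contralateral libraries and 3.93, 4.00, 4.10, 3.57 and 3.63 CPM in the ipsilateral libraries. All 5 control mice were lower on the injured side, with no overlap of the ranges, and the fall was 26.8% (log2 -0.45, SE 0.0682, adjusted p 2.766e-05). In cKO mice the contralateral libraries had 4.31, 4.94, 4.31, 4.73 and 4.00 CPM and the ipsilateral libraries 3.86, 4.09, 4.00, 4.21 and 4.50 CPM. These ranges overlapped, 4 of 5 mice were lower on the injured side, H100 was higher, and the log2 difference of -0.11 (SE 0.0681) was not called (adjusted p 0.243). The ipsilateral means of 3.85 ± 0.233 CPM in control and 4.13 ± 0.243 CPM in cKO mice were closer to each other than the contralateral means of 5.25 ± 0.412 and 4.46 ± 0.376 CPM (SD, n = 5).

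P2rx3 encodes the ATP receptor subunit of small nociceptors. Its control contralateral libraries had 287.8, 269.7, 265.4, 256.5 and 267.2 CPM and its control ipsilateral libraries 300.6, 288.4, 307.2, 282.0 and 274.2 CPM. The ranges overlapped, since H62 on the contralateral side was above H96 and H97 on the injured side, but each of the 5 control mice was higher on the injured side. The log2 difference of 0.11 (SE 0.0444) was not called with edgeR (adjusted p 0.0705). DESeq2 did call it (adjusted p 0.0378), as did edgeR when H95, H97 or H99 was left out (adjusted p 0.0300, 0.0441 and 0.0329). In cKO mice the contralateral libraries had 259.5, 241.4, 230.6, 272.2 and 233.8 CPM and the ipsilateral libraries 278.9, 300.0, 300.8, 284.0 and 294.2 CPM. Here the ranges did not overlap and the gene rose 1.18-fold (log2 0.24, SE 0.0444, adjusted p 3.01e-04). The lowest contralateral cKO libraries, H95, H100 and H64, were below every control library, and are the 3 with the highest mitochondrial share. Without them the log2 value in cKO mice was 0.14 (edgeR adjusted p 0.0418), and that in control mice, 0.12, was called (adjusted p 0.0169).

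Per length, P2rx3 was 47.6 ± 5.32 times as abundant as P2rx2 in control contralateral and 69.8 ± 2.33 times in control ipsilateral ganglia (SD, n = 5), with no overlap of the libraries. In cKO ganglia this ratio was 51.4 ± 4.22 on the contralateral and 65.3 ± 3.84 on the ipsilateral side, again without overlap. The ratio of P2rx3 to P2rx5 per length moved the other way: in control ganglia it went from 17.6 ± 1.95 to 11.7 ± 0.839, and in cKO ganglia from 17.6 ± 0.534 to 11.99 ± 0.814.

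P2rx4 encodes a receptor found in macrophages and activated microglia as well as in neurons. It had 39.9, 36.4, 36.1, 37.2 and 35.9 CPM in control contralateral, 35.2, 35.3, 38.0, 35.5 and 34.8 CPM in control ipsilateral, 33.7, 34.2, 34.2, 32.6 and 34.9 CPM in cKO contralateral and 36.6, 37.2, 36.5, 34.6 and 36.5 CPM in cKO ipsilateral libraries. In control mice 4 of 5 animals were lower on the injured side and the log2 difference of -0.053 (SE 0.0337) was not called (adjusted p 0.265). In cKO mice all 5 were higher, by 1.07-fold (log2 0.096, SE 0.0337, adjusted p 0.0340), although the ranges overlapped at H99 on the ipsilateral and H100 on the contralateral side. The call in cKO mice was lost when H61, H63, H64, H95 or H100 was left out (adjusted p 0.0970, 0.0548, 0.102, 0.0998 and 0.0559), and the log2 value then stayed between 0.089 and 0.10. The call was kept when only the contralateral libraries of H64, H95 and H100 were left out (log2 0.14, edgeR adjusted p 0.0378).

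P2rx6 and P2rx7 were not called in either genotype. P2rx6, whose subunit forms few receptors on its own, ran from 29.3 to 36.6 CPM in control contralateral, 30.1 to 33.4 CPM in control ipsilateral, 31.7 to 36.5 CPM in cKO contralateral and 29.9 to 33.9 CPM in cKO ipsilateral libraries. The log2 difference was -0.10 (SE 0.0548, adjusted p 0.208) in control and -0.11 (SE 0.0548, adjusted p 0.144) in cKO mice, in which all 5 animals were lower on the injured side. With the mouse as a block, which uses the pairing of the sides, the cKO value was called (adjusted p 0.0357). P2rx7, the receptor whose large pore and signal to the inflammasome are known from macrophages, ran from 13.8 to 15.6 CPM in control contralateral, 12.7 to 18.3 CPM in control ipsilateral, 10.7 to 15.4 CPM in cKO contralateral and 12.99 to 16.1 CPM in cKO ipsilateral libraries. Its log2 difference was 0.11 (SE 0.0923, adjusted p 0.426) in control and 0.068 (SE 0.0924, adjusted p 0.631) in cKO mice.

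Among the ASICs, Asic2 encodes a subunit that is less sensitive to protons by itself and modulates channels with other subunits. Its control contralateral libraries had 138.9, 137.0, 139.0, 132.4 and 137.9 CPM and its control ipsilateral libraries 106.7, 102.7, 109.4, 104.5 and 104.7 CPM. All 5 mice were lower on the injured side by a similar amount, from -0.42 to -0.34 on the log2 scale, and the gene fell by 22.9% (log2 -0.38, SE 0.0423, adjusted p 6.61e-07). In cKO mice the contralateral libraries had 124.0, 115.0, 117.3, 137.4 and 122.4 CPM and the ipsilateral libraries 104.2, 100.8, 108.6, 114.6 and 115.0 CPM. The lowest contralateral and highest ipsilateral cKO libraries, H64 at 115.043 and H100 at 115.010 CPM, were nearly equal, all 5 mice were lower on the injured side, and the fall was 11.8% (log2 -0.18, SE 0.0422, adjusted p 0.00217). H99, the highest contralateral cKO library, was the only one inside the contralateral control range. Without the contralateral libraries of H64, H95 and H100 the log2 value in cKO mice was -0.26 (edgeR adjusted p 5.6e-04).

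Asic1 encodes the proton-gated subunit common to sensory and central neurons. It had 77.6, 100.4, 108.3, 101.7 and 110.3 CPM in the control contralateral libraries and 78.0, 79.9, 73.2, 73.7 and 76.3 CPM in the ipsilateral libraries. The contralateral library of H62 stood apart from the other 4 and lay within the ipsilateral range. The fall of 23.5% (log2 -0.39, SE 0.0874, adjusted p 0.00201) was seen in 4 of 5 control mice, and the log2 difference was 0.0083 in H62. In cKO mice the contralateral libraries had 94.1, 97.3, 86.2, 115.4 and 87.9 CPM and the ipsilateral libraries 76.5, 71.2, 68.4, 85.0 and 73.0 CPM. All 5 cKO mice were lower on the injured side without overlap, by 22.2% (log2 -0.36, SE 0.0874, adjusted p 0.00336). Without the contralateral libraries of H64, H95 and H100 the log2 value in cKO mice was -0.48 (edgeR adjusted p 0.00559). Within mice H61 to H65 alone or mice H95 to H100 alone, which the labels separate only by number, the Asic1 fold kept its direction in both genotypes but was not called (adjusted p 0.0694 to 0.104).

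Asic3, the subunit best known for sustained currents in muscle and skin afferents, was not called. It ran from 78.9 to 101.2 CPM in control contralateral, 84.8 to 89.0 CPM in control ipsilateral, 75.97 to 94.5 CPM in cKO contralateral and 82.3 to 96.7 CPM in cKO ipsilateral libraries. The log2 difference was -0.10 (SE 0.0626, adjusted p 0.242) in control and 0.0045 (SE 0.0626, adjusted p 0.969) in cKO mice. H62 was again the lowest control contralateral library.

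**Figure D3:**
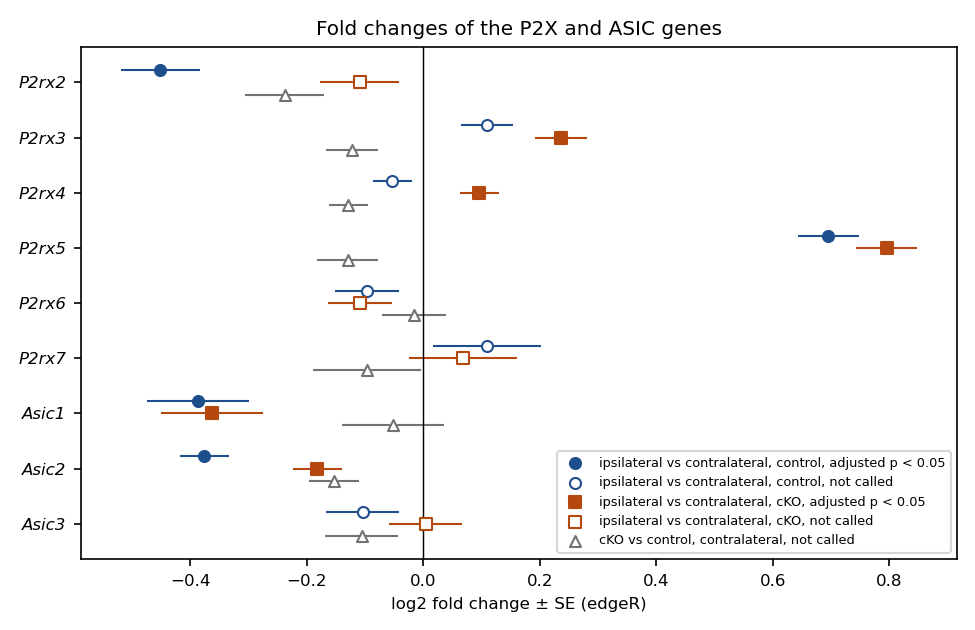
Log2 fold change (edgeR) of the 9 genes with SE derived from the F statistic. Circles are ipsilateral against contralateral in control mice, squares the same in cKO mice, and triangles cKO against control in contralateral ganglia. Filled symbols have an adjusted p under 0.05. P2rx5 lies at 0.70 and 0.80, Asic1 and Asic2 lie left of 0 in both genotypes, and all 9 triangles are open and left of 0, though that of P2rx6, at -0.015, turns sign on the FPKM scale.

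The next question was whether the knockout changed these genes. In contralateral ganglia 0 of 9 were called between cKO and control mice with edgeR, against 0.0735% of all genes, but 5 of 9 had an unadjusted p under 0.05, against 17.5% of all genes. All 9 had the lower mean in cKO mice (median log2 -0.12, beside -0.013 over all genes), except that P2rx6, at -0.015, turned to 0.0050 on the scale of log2 FPKM with a pseudocount of 1. Without the libraries of H64, H95 and H100, edgeR still called 0 of 9 (2 of all genes), and P2rx3 went from -0.12 to -0.018, Asic2 from -0.15 to -0.068, P2rx5 from -0.13 to -0.052 and Asic3 from -0.11 to -0.0065, while P2rx2 was at -0.22, P2rx4 at -0.16, Asic1 at 0.073 and P2rx6 at 0.029. The contralateral library of H99 differed from those 3 by more than counting error predicts (chi-square over degrees of freedom 48.2, 48.6 and 52.7), and the largest such value of a pair of control contralateral libraries was 23.0. The members did not share 1 order of these libraries. H99 was the lowest contralateral cKO library for P2rx4, at 32.6 CPM, and H64 the highest for P2rx2, at 4.94 CPM. The part of the mitochondrial share and of these library differences in the lower means was not tested. The 5 members with an unadjusted p under 0.05 were P2rx2 (log2 -0.24, adjusted p 0.115), Asic2 (-0.15, adjusted p 0.109), P2rx4 (-0.13, adjusted p 0.103), P2rx5 (-0.13, adjusted p 0.208) and P2rx3 (-0.12, adjusted p 0.169). Only P2rx4 among the 9 had ranges that did not overlap, with cKO libraries at 32.6 to 34.9 CPM and control libraries at 35.9 to 39.9 CPM, where 1.52% of all genes showed no overlap. DESeq2 called 3 of the 9, P2rx2, P2rx4 and Asic2 (adjusted p 0.0414, 0.0296 and 0.0289), against 4.7% of the 21906 genes to which it gave an adjusted p. Without H99, the cKO mouse with the highest contralateral P2rx3, Asic1, Asic2 and Asic3, edgeR called 4: Asic2 (log2 -0.19, adjusted p 0.00346), P2rx3 (-0.16, adjusted p 0.0241), P2rx2 (-0.26, adjusted p 0.0320) and P2rx4 (-0.11, adjusted p 0.0400). Over all genes the calls of this comparison went from 21 to 3326, or 11.5%, without H99.

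In ipsilateral ganglia 0 of 9 were called between genotypes, against 0.007% of all genes, and 0 of 9 had an unadjusted p under 0.05, against 2.36%. DESeq2 called 0 of 9 as well, against 3 of the 28564 genes fitted (0.0105%). The log2 differences ran from -0.14 for P2rx7 (SE 0.0923) to 0.10 for P2rx2 (SE 0.0682), with a median of 0.0029 beside 2.2e-04 over all genes. The interaction, which tests whether the transection response differed between genotypes, called 0 of 9 and 0.0% of all genes with edgeR. DESeq2 called 0 of 9, against 11 of the 28564 genes fitted (0.0385%). Unadjusted p was under 0.05 for 3 of 9 members and for 9.8% of all genes: P2rx2 (log2 0.34, SE 0.0963, p 0.00199), Asic2 (0.19, SE 0.0597, p 0.00391) and P2rx4 (0.15, SE 0.0477, p 0.00514), each with an adjusted p of 0.485. So the calls in P2rx3 and P2rx4 in cKO mice alone, and in P2rx2 in control mice alone, were not shown to differ between genotypes. The comparisons share libraries, so that a low contralateral cKO value enters the cKO transection response, the contralateral difference and the interaction. Without the contralateral libraries of H64, H95 and H100 the log2 interaction was 0.32 for P2rx2, 0.18 for P2rx4 and 0.11 for Asic2. That of P2rx3 went from 0.13 to 0.022, and none of these was called.

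Marker genes were measured beside these differences. Markers of non-peptidergic nociceptors, the neurons in which P2rx3 is known to be highest, summed to 1995 to 2165 CPM in control contralateral, 1882 to 2069 in control ipsilateral, 1584 to 2144 in cKO contralateral and 1951 to 2050 CPM in cKO ipsilateral libraries. All 8 had the lower mean in contralateral cKO ganglia (median log2 -0.22; 0 called with edgeR, 2 with DESeq2, 6 at an unadjusted p under 0.05), and H99 had the highest sum of the cKO contralateral libraries. In control mice 6 of the 8 fell on the injured side and Ret rose (median log2 -0.50), and in cKO mice 4 fell and 2 rose (median -0.25). Gfra2, the neurturin receptor, went from 223 to 148 CPM in control mice, Mrgprd from 220.2 to 189 CPM, Plxnc1 from 447 to 429 CPM without a call, and Ret, the shared receptor kinase, from 914 to 1039 CPM. Macrophage markers summed to 132 to 250.4 CPM in control contralateral, 150.4 to 285 in control ipsilateral, 129.6 to 358 in cKO contralateral and 188 to 307 CPM in cKO ipsilateral libraries. In control mice all 12 had the higher mean on the injured side (median log2 0.40; Mrc1 called), and in cKO mice 7 of 12 (median 0.12; 0 called with edgeR or DESeq2, 0 at an unadjusted p under 0.05). All 12 macrophage markers had the higher mean in contralateral cKO ganglia (median 0.25; 0 called with edgeR or DESeq2, 0 at an unadjusted p under 0.05), as had all 6 fibroblast markers (median 0.81; 0 called with edgeR, 2 with DESeq2, 5 at an unadjusted p under 0.05), whose sum was 803 to 1733 CPM there and 667 to 1198 CPM in control contralateral libraries. All 6 endothelial (median 0.14), 6 neutrophil (0.77), 5 erythroid (0.47) and 6 muscle markers (1.37) also had the higher mean there, with 0 called by edgeR or DESeq2 and only 1 of these genes, an endothelial one, at an unadjusted p under 0.05. Other lists did not move one way in this comparison: lymphocyte markers were lower in mean in 5 of 6 (median -0.38), satellite glia markers higher in 3 and lower in 3, Schwann cell markers higher in 5 and lower in 3, and sensory neuron markers lower in 9 of 12 (median -0.025), with 0 of all these called by edgeR, 1 satellite glia marker by DESeq2, and 3 sensory neuron and 1 satellite glia marker at an unadjusted p under 0.05. With transection all 6 endothelial markers had the higher mean in control mice (median 0.39), and Flt1 and Emcn rose, while in cKO mice 3 were higher and 3 lower (median 0.038; 0 called with edgeR or DESeq2, 0 at an unadjusted p under 0.05). Of the fibroblast markers, all 6 had the higher mean on the injured side of control mice (median 0.32; 0 called with edgeR, 1 with DESeq2, 1 at an unadjusted p under 0.05) and 5 of 6 the lower mean in cKO mice (median -0.48), where Dpt fell. In control mice 6 of 6 neutrophil, 4 of 5 erythroid and 6 of 6 muscle markers had the higher mean there (median 0.61, 0.034 and 0.48). In cKO mice 4 of 6 neutrophil, 5 of 5 erythroid and 6 of 6 muscle markers had the lower mean (median -0.056, -0.41 and -3.48). Lymphocyte markers were lower in 5 of 6 in both genotypes (median -0.22 and -0.34). Of these lists edgeR called 0 markers and DESeq2 only 4 muscle markers in cKO mice. Of the 12 sensory neuron markers, 5 fell and 0 rose on the injured side of control mice, and 4 had the higher and 8 the lower mean (median log2 -0.023). Their sum was 11590.3 CPM on the contralateral and 11572 CPM on the ipsilateral side as group means, and the most abundant, Nefm (2585 and 2571 CPM), Nefl (2144 and 2149), Tubb3 (1599.6 and 1713) and Prph (1201 and 1215), were not called. In cKO mice 3 fell and 0 rose, with 3 of the 12 higher and 9 lower in mean (median -0.092), and the sum was 11498 and 10943 CPM. None of the markers of these cell types was at 0, and their part in the results of the 9 genes was not tested.

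The other genes of the same families on the list, 3 in number, were low. P2rx1 had 4 to 152 counts and Asic4 24 to 66 counts per library, both passed the filter and neither was called in any comparison, and Asic5 had 0 counts in all 20 libraries. The G protein-coupled P2Y receptors, which respond to ATP, ADP or UTP, had 1 of 7 tested genes called in each genotype. P2ry1, the ADP receptor, fell in control mice from 70.6 to 44.7 CPM (log2 -0.66, adjusted p 1.18e-04) and in cKO mice from 60.8 to 48.1 CPM (log2 -0.34, adjusted p 0.0236). P2ry2 was at 22.8 and 20.7 CPM, P2ry12 at 7.26 and 8.24 CPM and P2ry14 at 2.40 and 3.13 CPM on the contralateral and ipsilateral side of control mice, and none of these was called.

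Of 8 tested genes for release of ATP, 2 rose and 1 fell in control mice and 2 rose and 2 fell in cKO mice. Panx1, a large-pore ATP release channel, rose in control mice from 68.3 to 75.1 CPM (log2 0.14, adjusted p 0.00202) and in cKO mice from 60.99 to 76.7 CPM (log2 0.33, adjusted p 5.3e-08). The difference between these responses, a log2 interaction of 0.19, was not called with edgeR (adjusted p 0.485) but was with DESeq2 (adjusted p 0.0253). Lrrc8a, the essential subunit of volume-regulated anion channels, rose by 0.22 and 0.35 on the log2 scale, and Panx2 fell by 0.25 and 0.16. Gja1, the connexin of satellite glia, was not called (log2 0.27 and -0.24).

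Enzymes that break down extracellular nucleotides had 3 of 11 genes higher and 2 lower in control mice, and 3 higher and 0 lower in cKO mice. Nt5e, the ectonucleotidase that makes adenosine, rose in control mice from 82.8 to 99.9 CPM (log2 0.27) and in cKO mice from 78.5 to 105 CPM (log2 0.42). Acp3, the acid phosphatase of non-peptidergic nociceptors, fell from 642 to 490.0 CPM in control mice (log2 -0.39, adjusted p 1.29e-04), and its -0.16 in cKO mice was not called (adjusted p 0.0865). Entpd3, the ecto-ATPase of nociceptors, fell by 0.16 in control mice and was at 0.053 in cKO mice without a call, and Adk, adenosine kinase, was not called (-0.060 and 0.043). Of the 4 adenosine receptor genes, Adora2a fell in both genotypes (log2 -0.60 and -0.52) and Adora2b rose in cKO mice (log2 0.28, adjusted p 0.00783). Adora1 (log2 -0.094 and -0.0037) and Adora3 (1.01 and 0.59), the latter at 0.0787 to 0.164 CPM as group means, were not called.

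Other proton sensors had 2 of 10 tested genes higher and 1 lower in control mice and 2 higher and 2 lower in cKO mice. Trpv1, the capsaicin and heat receptor that acid opens, had 185 to 188 CPM as group means and was not called (log2 0.013 and 0.015). Pacc1, the proton-activated chloride channel, rose by 0.27 and 0.41 on the log2 scale. Kcnk18, a K2P potassium channel of nociceptors, fell by 0.73 and 0.52, and Kcnk3, an acid-sensitive channel of the same family, was not called (-0.12 and -0.32). Among 9 tested genes for ASIC partners and epithelial sodium channels, 2 rose and 5 fell in control mice and 2 rose and 2 fell in cKO mice. Stom, a membrane protein known to bind ASICs, rose 2.19-fold in control and 1.86-fold in cKO mice (adjusted p 1.27e-06 and 1.65e-05). Its relative Stoml1 fell by 0.15 and 0.11, Prkca, protein kinase C alpha, by 0.37 in control mice and without a call in cKO mice (-0.14), and Nedd4l, a ubiquitin ligase of sodium channels, by 0.21 in control mice and without a call in cKO mice (0.021).

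Genes that set the pH of cells and tissue had 3 of 10 higher and 3 lower in control and 3 higher and 2 lower in cKO mice. Slc16a1, a lactate and proton carrier, rose by 0.48 and 0.42 on the log2 scale, and the bicarbonate carrier Slc4a4 fell by 0.18 and 0.19. Car2, a carbonic anhydrase, was not called (0.12 and 0.019). Around P2X7, 1 of 8 inflammasome genes was higher and 1 lower in each genotype: Panx1, named above, and Nek7, an activator of the inflammasome, which fell by 0.096 in control and 0.15 in cKO mice. Casp1 (0.090 and 0.14) and Il18 (0.27 and -0.17) were not called. Of 6 genes of the P2X4 pathway 2 rose in each genotype, Bdnf by 1.11 and 1.30 and Mapk14, the p38 kinase, by 0.35 and 0.48, while the transcription factors Irf5 (-0.071 and 0.0046) and Irf8 (0.11 and -0.18) were not called. Between genotypes on the contralateral side no gene of these lists was called with edgeR, and the smallest adjusted p was that of Panx1 (log2 -0.16, adjusted p 0.0503). In the same comparison DESeq2 called 3 genes of ATP release, 2 of the inflammasome list and 1 each of nucleotide breakdown, adenosine receptors and other proton sensors; Panx1 stands on both of the first 2 lists.

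**Figure D4:**
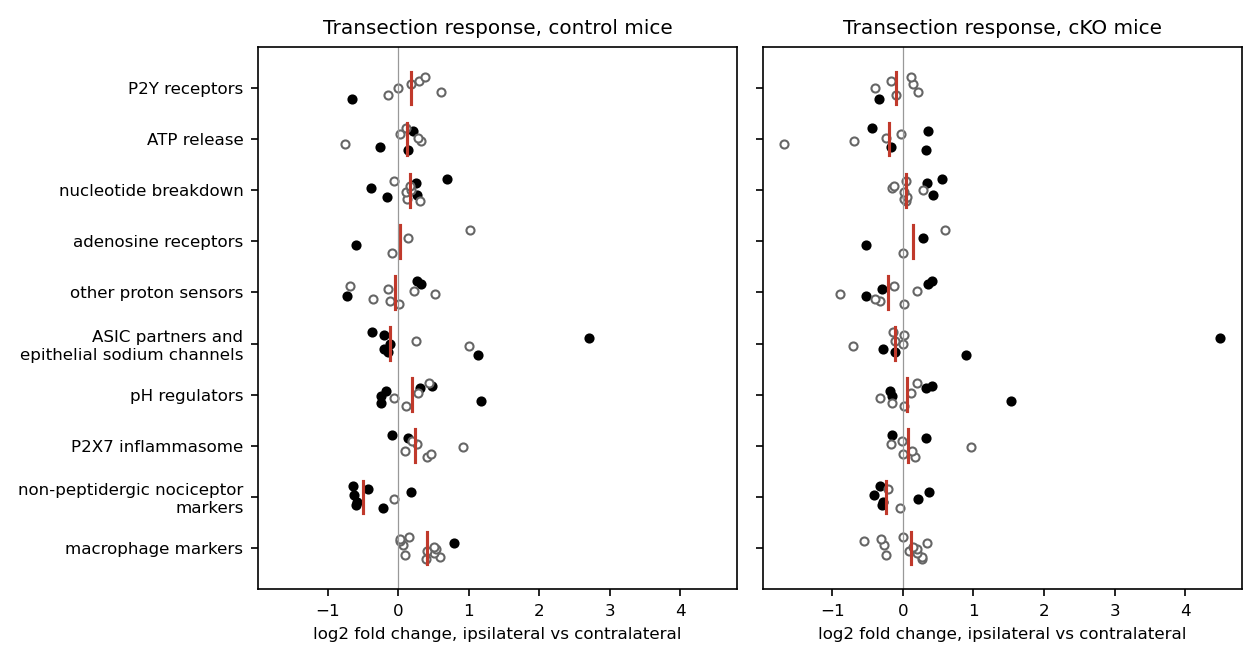
Log2 fold change, ipsilateral against contralateral, of the tested genes of 10 lists in control mice (left) and cKO mice (right); filled points have an adjusted p under 0.05 (edgeR) and red bars are list medians. The non-peptidergic nociceptor markers have the lowest median of the lists in control mice, at -0.50, and most genes of the ATP and acid lists lie within 1 of 0.

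The genes whose log2 CPM followed each channel most closely over the 20 libraries were found among 13112 genes with a symbol and a mean of at least 5 CPM. P2rx5 was followed most closely by Gfra1, a GDNF receptor, Il4ra and Tecta (Pearson r 0.988, 0.987 and 0.986), and after removal of the group means r was 0.643, 0.562 and 0.636. Among the genes nearest to Asic2 were Gpd1l and Grk2 (r 0.982 and 0.980), and within groups r stayed at 0.935 and 0.931. Asic1 was nearest to B3galt5, Cacng5 and Cdh12 (r 0.965, 0.964 and 0.963), and P2rx3 to Wdr81, 9830144P21Rik and Mthfd1l (r 0.957, 0.948 and 0.945). Asic3 was nearest to Pcsk2, Susd2 and Cpne6 (0.899, 0.884 and 0.882), P2rx7 to Reln, Cnp and Itpr3 (0.892, 0.888 and 0.872), P2rx2 to Fmo5, Ccdc68 and Bbs9 (0.877, 0.877 and 0.871), and P2rx6 to Relt, Lhfpl1 and Chp2 (0.860, 0.847 and 0.845). P2rx4 had the weakest neighbours, Ccdc40, Ptpn9 and Ccdc134 (0.740, 0.735 and 0.730). Within groups r was 0.628, 0.497 and 0.477 for the neighbours of P2rx2 and 0.457, 0.524 and 0.747 for those of P2rx4. It was 0.794 or higher for the neighbours of P2rx3, P2rx6, P2rx7, Asic1 and Asic3. Among the channels themselves r over the 20 libraries was highest for P2rx2 with Asic2 (0.819), P2rx6 with Asic1 (0.80) and Asic1 with Asic2 (0.795), and lowest for P2rx5 with Asic2 (-0.801) and with Asic1 (-0.712). These values describe libraries that share the transection contrast, their depth and the 10 mice, and carry no p.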

How the data were processed

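RNA of lumbar DRG was measured in 20 mouse libraries (stranded mRNA kit, paired reads of 150 bases, per the labels' protocols). The deposited count table holds the authors' whole-number read counts per gene, without normalisation. The deposited FPKM table was made by the authors from these counts with a length that equals the whole gene span, introns included, for the 9 genes, so FPKM were used only within genes, as an alternative. HISAT2, Picard and the builds mm10 and mm39 are named in the submitters' processing notes, without roles; the counting program, annotation release and strand setting are not given in the sources used here. GENCODE release M21 gave exon lengths and, by Ensembl identifier, symbols for 51487 of 78258 genes.

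Counts were fitted in R 4.3.3 with edgeR 4.0.16 (filterByExpr with a minimum count of 10 and a minimum total of 15, TMM scaling, robust quasi-likelihood F-test); all 20 libraries entered 1 model of 4 group means. Benjamini-Hochberg adjustment ran over the 28564 genes tested, and calls were made at an adjusted p under 0.05. The SE of a log2 value was taken as its absolute size over the square root of its F statistic, since the test itself reports none. The fit was tested on simulated counts. Alternatives were DESeq2 1.42.0, limma 3.58.1 (voom with mouse as a random effect, or log2 FPKM with a pseudocount of 1 or 0.1), RLE size factors, other filters, an added 2-fold threshold, only the libraries compared, the mouse number range (H61 to H65 or H95 to H100) as a covariate or by itself (the last added after the data were seen, as was leaving out the 3 libraries whose mitochondrial share was above that of every control library), CPM by library total, and leaving out each mouse. The mouse numbers in the labels pair the sides, since each mouse gave both; deviations of the sides from their group means correlated over genes at -0.0546 to 0.361 in the 10 mice, and the mouse as a block was an alternative. Libraries of a group differed beyond counting error (chi-square per degree of freedom 4.97 to 52.7); reads carry no molecular identifiers.

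The members, gene lists and tests were chosen with earlier results of these data known. Of each list the 4 genes with the highest mean CPM are named, with those called between genotypes; for each member the 3 genes with the highest correlation are named. A few genes that these rules name are not reported here.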

Additional observations from a re-analysis of the deposited data

Results flagged for a closer look

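A library stood apart from the other 4 of its group, by the ratio of its gap to the group's range (above Dixon's 95% critical value), in 4 of 36 groups of values tested, where chance gives about 1.8. P2rx4 was highest in H65 among control ipsilateral libraries, at 38.0 CPM (ratio 0.773), and lowest in H99 among cKO ipsilateral libraries, at 34.6 CPM (ratio 0.743). P2rx6 was lowest in H62 among control contralateral libraries, at 29.3 CPM (ratio 0.760), and Asic1 was lowest in the same library, at 77.6 CPM (ratio 0.732). Without H62 the Asic1 and P2rx6 differences between the sides of control mice kept their direction and their side of the threshold.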

How the results depend on the processing

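Of the 9 genes, the number called in control mice was 4 to 5 and in cKO mice 4 to 5 when each mouse was left out in turn, and an added 2-fold threshold left 0 in each genotype, since no member reached it. Within mice H61 to H65 the cKO count was 3, against 14.8% of all genes, and within H95 to H100 it was 2, against 13.7%, with fewer libraries; the control count was 3 in each, Asic1 being lost, against 15.8% and 11.4%. The contralateral genotype count of 0 became 3 with DESeq2, against 4.7% of the genes to which it gave an adjusted p. When each mouse was left out it was 0 to 4, against 0.0139% to 11.5% of all genes, and the 4 came without H99. The cause was not tested. With the mouse as a replicate block the counts were 4 in control mice, 6 in cKO mice (P2rx6 added) and 0 for the interaction. Over all genes that fit called 30.0%, 31.6% and 0.0%, and the pairing changed no other call of a member. Over all genes the contralateral comparison called 21 genes with edgeR, 1030 with DESeq2, 45 with a mean CPM of at least 1, 50 without a filter and 2 with only the libraries compared. Levels as CPM by library total moved by less than 1 SD in all 36 group means.

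Of the alternative log2 values of the members, 967 kept direction and call, 15 gained a call, 23 lost it and 48 turned sign, each of a value that was not called. Besides the losses under the 2-fold threshold and those given in the report, P2rx4 in cKO mice was not called on log2 FPKM (adjusted p 0.205 and 0.204) or in either range of mice (0.264 and 0.257), nor Asic2 in cKO mice H95 to H100 (0.117), and P2rx3 in control mice was called when genes under a mean CPM of 1 were left out (0.0417) and in a fit of the 10 control libraries (0.0218). With Asic3 in cKO mice the value 0.0045 became -0.017 and -0.018 on log2 FPKM (pseudocounts 1 and 0.1), -0.0043 in mice H95 to H100, and -0.026 to 0.026 when mice were left out. In the contralateral comparison P2rx6 became 0.0050 and 0.0075 on log2 FPKM, 0.11 in mice H61 to H65 and -0.068 to 0.027 without each mouse, and Asic1 became 0.024 in H61 to H65 and -0.13 to 0.0030 without each mouse. In the ipsilateral comparison mice H61 to H65 gave -0.0087 for P2rx2, -0.042 for P2rx3, 0.0020 for P2rx5, 0.0027 for P2rx6, 0.038 for P2rx7, -0.048 for Asic2 and -0.021 for Asic3, and mice H95 to H100 gave 0.0098 for Asic1. There, leaving out each mouse gave -0.013 to 0.033 for P2rx3, -0.045 to 0.0039 for P2rx5, -0.076 to 0.0074 for Asic1 and -0.036 to 0.026 for Asic3, and the mouse range as a covariate gave -0.012 for Asic3. For the interaction P2rx6 was 0.041 in H95 to H100, P2rx7 0.068 and Asic1 -0.082 in H61 to H65, and leaving out each mouse gave -0.044 to 0.017, -0.097 to 0.027 and -0.029 to 0.11 for the same genes. Without the 3 libraries of high mitochondrial share, Asic3 in cKO mice became -0.086, P2rx6 and Asic1 in the contralateral comparison 0.029 and 0.073, and the Asic1 interaction -0.10. The cause of these turns of sign was not tested. The counts of called members were then 5 in control and 5 in cKO mice, against 31.3% and 23.2% of all genes. They were 0 between genotypes on either side, against 0.00668% of all genes on each, and 0 for the interaction, against 0.0%. Sizes moved even where calls held. With 1 added to FPKM before logs, transection values of control mice shrank to -0.039 for Asic2 (from -0.38), 0.39 for P2rx5 (from 0.70) and -0.26 for P2rx2 (from -0.45), and those of cKO mice to -0.020 for Asic2 (from -0.18) and 0.44 for P2rx5 (from 0.80), a scale that shrinks differences at low values. Depth limited P2rx2 most: its 306 to 377 counts in control ipsilateral libraries give a counting error of 5.51% (coefficient of variation), beside a spread of 6.07% between those libraries.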

Other observations

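Other cell types of the ganglion gave a background to the channel genes. Of 6 markers of peptidergic nociceptors, the neurons rich in Trpv1, 1 rose in each genotype: Adcyap1, the neuropeptide PACAP, went from 118 to 402 CPM in control mice (edgeR log2 1.77, adjusted p 2.7e-10) and from 127 to 413 CPM in cKO mice. Calca, the CGRP gene, fell in cKO mice (log2 -0.14, adjusted p 0.026) and was not called in control mice (0.034), and Tac1 was not called in either genotype. Of 8 markers of large-fibre neurons, Runx3 fell in both genotypes, Pvalb fell in cKO mice and Spp1 rose in control mice. In mean 5 of the 8 were lower in control and 6 in cKO mice (median log2 -0.047 and -0.10). Of 6 markers of satellite glia, the cells that wrap the neurons, 2 rose in control and 3 in cKO mice. Among them Glul, glutamine synthetase, rose by 0.46 and 0.30 on the log2 scale and the potassium channel gene Kcnj10 by 0.30 and 0.25.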
